A study of Rattus norvegicus with 6 samples.

Results

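The genes described here encode elastin, the fibrillins and the proteins that assemble, bind or cross-link elastic fibres and microfibrils. They are Fbn1, Fbn2, Eln, Fbln1, Fbln2, Fbln5, Ltbp1, Ltbp2, Lox and Mfap5, which make up 10 of the 30957 genes in the expression table. They were chosen by gene name with the crushed and intact counts of these same nerves already known, so their differences between the groups are given as a description, with no test. RNA-seq was performed on 3 crushed sciatic nerves and on 3 intact nerves from the opposite side of Sprague-Dawley rats, described in the methods as adult males sampled at 4 dpi (days post injury) in the stump proximal to the crush. The intact nerves came from operated animals, and no nerves of unoperated rats were compared. The samples are labelled as nerve tissue, a label that several marker genes below do not bear out, and in bulk RNA fewer cells of a type and less RNA per cell cannot be told apart. Each gene had a read count in each nerve, with totals of 24844371 to 27139360 counts. The share of counts taken by the 10 genes was 0.194% to 0.203% in intact nerves, against 0.255% to 0.259% after crush.

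Elastic fibres consist of a core of cross-linked elastin on a scaffold of microfibrils, and microfibrils also occur without elastin. Fibrillins form the microfibrils, latent TGF-beta binding proteins (LTBPs) tether inactive TGF-beta to them, fibulins bind tropoelastin and fibrillin, and lysyl oxidases cross-link elastin and collagen. In peripheral nerve these proteins belong to the connective tissue sheaths around the axons and the Schwann cells.

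The libraries held few reads of several genes that define nerve tissue. Of the 5 myelin markers, 2 had at most 3 counts in every nerve. Mag was at 0 in all 6 nerves, and Mbp had at most 1 count in any nerve. At most 3 counts in every nerve were also found for 3 of the 5 Schwann cell markers, 5 of the 8 macrophage markers and 2 of the 7 fibroblast markers. Among Schwann cell markers Gap43 was at 0 and Sox10 and S100b had at most 3 counts. The summed level of the 5 Schwann cell markers was between 5.12 and 5.61 normalized CPM (CPM is the count scaled to a common library size, here with TMM) in intact nerves and between 3.37 and 3.59 in crushed nerves. Nearly all of it was Erbb3, a neuregulin receptor and the only one of the 5 that passed the filter, which fell from 5.18 ± 0.223 to 3.44 ± 0.130 normalized CPM (SD, n = 3 each, log2 fold change -0.59, SE 0.118, edgeR adjusted p = 0.0222 after Benjamini-Hochberg correction). The summed level of the 5 myelin markers was between 59.7 and 64.7 normalized CPM in intact and between 59.3 and 59.4 in crushed nerves. For the 8 macrophage markers the sum was between 1.93 and 3.11 in intact and between 2.42 and 3.15 in crushed nerves, with Ptprc, Cd163 and Adgre1 at 0 throughout. In contrast, Mki67, a marker of dividing cells, had between 37037 and 43837 counts. Dcn, Lum and Col1a2, genes of fibroblasts and their matrix, were at 0 in all nerves. These levels go against the label of whole sciatic nerve, so the values below are those of the libraries labelled crushed and intact, and the part of these markers in them was not tested.

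Fbn1 encodes fibrillin-1, the main structural protein of microfibrils in adult tissue (ENSRNOG00000007302, chromosome 3, 117569697 to 117766120 in Rnor_6.0). Intact nerves 1, 2 and 3 had 19293, 21135 and 19842 counts of Fbn1, and crushed nerves 1, 2 and 3 had 33337, 33826 and 30132. Normalized CPM was 788 ± 22.2 (SD, n = 3) in intact nerves and 1223 ± 21.7 (SD, n = 3) in crushed nerves. Each crushed nerve was above each intact nerve, and the gap between the groups was many times the spread within either. The log2 fold change of Fbn1, crushed over intact, was 0.63 with an SE of 0.0369, a 1.55-fold higher level (95% interval 1.47 to 1.64). It ranked 141 of the 12393 genes that passed the expression filter, counted from the highest log2 fold change.

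Fbn2, which encodes fibrillin-2, the fibrillin of developing tissue, had 0 counts in all 6 nerves (ENSRNOG00000043219, chromosome 18, 53068495 to 53181503). A count of 0 allows up to 3 counts, which equal between 0.110 and 0.121 normalized CPM in these nerves, a limit that covers counting error only. The microfibril scaffold was thus represented in these libraries by the reads of 1 of the pair of fibrillin genes in the list.

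Ltbp1 encodes an LTBP that covalently binds latent TGF-beta and anchors it to microfibrils (ENSRNOG00000033090, chromosome 6, 21203502 to 21600451). Its counts were 26305, 28377 and 26747 in the intact and 30997, 30807 and 28420 in the crushed nerves, in the order of the nerve numbers. Normalized CPM of Ltbp1 was 1065 ± 22.0 in intact nerves and 1135 ± 0.390 in crushed nerves (SD, n = 3 each). The groups did not overlap, but the 1.07-fold difference (95% interval 1.01 to 1.12, log2 fold change 0.09, SE 0.0340) was small. The crushed nerves varied with a coefficient of variation of 0.0344%, below the 0.577% of counting error alone, so that the SD of this group understates the error of its mean.

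Ltbp2 encodes an LTBP that does not bind latent TGF-beta and associates with fibrillin-1 and fibulin-5 (ENSRNOG00000012094, chromosome 6, 108500112 to 108596569). The intact nerves had 165, 174 and 190 counts of Ltbp2 and the crushed nerves 287, 301 and 306. Its normalized CPM was 6.93 ± 0.643 in intact and 11.3 ± 0.866 in crushed nerves (SD, n = 3 each), again without overlap. The log2 fold change of Ltbp2 was 0.70 with an SE of 0.105 (1.63-fold, 95% interval 1.38 to 1.91), and ranked 114 of 12393. Its counts were far below those of Fbn1 and its interval was wider, the intervals of both genes overlapped, and the order of their fold changes turned in both limma fits on FPKM and without crushed nerve 3.

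The promoters of Fbn1, Fbn2 and Ltbp2 are shown because Fbn1 and Ltbp2 had larger fold changes than the other 4 genes past the filter, while Fbn2, the paralog of Fbn1, had no reads. Each sequence holds the 250 bases before the start site of the gene in the RefSeq annotation of GRCr8, 5′ to 3′ on the strand of the gene. Capitals mark every match, on either strand, to 5 short motifs. These were the TATA box TATAAA, the GC box GGGCGG, the CCAAT box spelled CCAAT, the AP-1 motif TGANTCA and the Smad box CAGAC, which binds the transcription factors of TGF-beta signalling.
Fbn1, chr3:133203391-133203640, minus strand: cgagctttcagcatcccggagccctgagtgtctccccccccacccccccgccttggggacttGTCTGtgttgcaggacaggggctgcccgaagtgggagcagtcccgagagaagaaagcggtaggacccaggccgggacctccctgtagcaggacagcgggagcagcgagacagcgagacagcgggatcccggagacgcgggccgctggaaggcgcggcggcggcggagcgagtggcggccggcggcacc
Fbn2, chr18:53901993-53902242, minus strand: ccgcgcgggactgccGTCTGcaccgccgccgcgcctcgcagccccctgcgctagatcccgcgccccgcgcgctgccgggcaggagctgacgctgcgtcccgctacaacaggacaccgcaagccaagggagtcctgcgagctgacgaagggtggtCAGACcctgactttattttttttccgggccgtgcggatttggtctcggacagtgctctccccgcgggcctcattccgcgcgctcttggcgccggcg
Ltbp2, chr6:110257299-110257548, minus strand: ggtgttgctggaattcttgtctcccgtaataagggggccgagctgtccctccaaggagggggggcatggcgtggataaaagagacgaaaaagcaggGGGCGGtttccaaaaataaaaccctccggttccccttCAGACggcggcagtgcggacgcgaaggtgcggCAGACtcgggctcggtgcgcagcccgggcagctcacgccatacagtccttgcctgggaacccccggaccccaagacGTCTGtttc

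The Fbn1 window held 1 match, a Smad box from -188 to -184 relative to the start site. The Fbn2 window held 2 Smad boxes, at -235 and -96. The Ltbp2 window held a GC box at -154 and 3 Smad boxes, at -117, -85 and -9. Both fibrillin windows were rich in G and C, with 71.2% GC and 24 CpG dinucleotides for Fbn1 and 70% GC and 34 CpG for Fbn2, against medians of 51.2% and 5 over the 33469 promoters of the annotation. The fibrillin gene without reads and the abundant one were thus close in GC content. The Ltbp2 window had 61.6% GC and 19 CpG.

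Promoters were matched by symbol for 7 of the 10 genes, and those of Eln, Fbln1 and Lox were not matched. The Ltbp1 window held 3 CCAAT boxes and 1 Smad box, that of Fbln2 3 GC boxes, that of Fbln5 1 GC box and 2 Smad boxes, and that of Mfap5 1 CCAAT box. None of the 7 windows held the letters of the TATA box or the AP-1 motif. Of all promoters of the same length, 42.93% held a Smad box, 34.02% a CCAAT box, 30.47% a GC box, 12.93% a TATA box and 6.34% an AP-1 motif. The motif matches are a description of these letters only.

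Eln encodes tropoelastin, the soluble precursor of elastin (ENSRNOG00000001469, chromosome 12, 24978483 to 25021863). The reads of Eln numbered 1, 0 and 2 in the intact and 1, 1 and 0 in the crushed nerves. Both groups lay under 3 counts, and no fold change is given. In FPKM (fragments scaled to gene length and library size), Eln reached at most 0.0220 in any nerve, whereas Fbn1 was at 79.2 ± 2.48 in intact nerves (SD, n = 3). The core protein of the elastic fibre therefore had next to no reads in libraries where its scaffold was abundant.

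Fbln1 encodes fibulin-1, a fibulin of elastic fibres and basement membranes (ENSRNOG00000014137, chromosome 7, 126096793 to 126176468). Its counts were 314, 292 and 283 in the intact and 294, 296 and 227 in the crushed nerves. Its normalized CPM was 11.6 ± 0.696 in intact and 10.2 ± 1.03 in crushed nerves (SD, n = 3 each). It was the only one of the 6 genes past the filter that was lower in all crushed nerves, by a log2 fold change of -0.18 (SE 0.10, 95% interval -0.40 to 0.04). The highest crushed nerve, at 10.9, lay just under the lowest intact nerve, at 11.1, so that the separation was within the spread of either group.

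Fbln2 encodes fibulin-2, which bridges fibrillin and matrix proteoglycans (ENSRNOG00000007338, chromosome 4, 122835436 to 122895121). The intact nerves had 61, 50 and 63 counts of Fbln2 and the crushed nerves 71, 82 and 69. Normalized CPM of Fbln2 was 2.28 ± 0.342 in intact and 2.79 ± 0.213 in crushed nerves (SD, n = 3 each), a log2 fold change of 0.29 (SE 0.166, 95% interval -0.07 to 0.66). The lowest crushed nerve, at 2.60, lay just above the highest intact nerve, at 2.54. Counting error alone gave a coefficient of variation of 13.1% in the intact and 11.6% in the crushed nerves, against an observed 15% and 7.62%.

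Fbln5, which encodes fibulin-5, a protein that brings tropoelastin to microfibrils, had 1 count in intact nerve 1, 1 count in crushed nerve 1 and 0 in the other nerves (ENSRNOG00000050539, chromosome 6, 125644804 to 125723944). Mfap5, which encodes the microfibril glycoprotein MAGP-2, had 2 counts in intact nerve 2 and 0 in the other nerves (ENSRNOG00000015505, chromosome 4, 155313671 to 155336228). Together with Fbn2 and Eln these were the 4 genes that did not pass the expression filter.

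Lox encodes lysyl oxidase, the enzyme that starts the cross-linking of elastin and collagen (ENSRNOG00000014426, chromosome 18, 47500330 to 47577819). Counts of Lox were 3417, 3691 and 3383 in the intact and 4596, 4633 and 4398 in the crushed nerves. Its normalized CPM was 137 ± 2.48 in intact and 171 ± 3.69 in crushed nerves (SD, n = 3 each). Every crushed nerve was above every intact nerve, with a 1.25-fold difference (95% interval 1.18 to 1.33, log2 fold change 0.32, SE 0.0395). The cross-linking enzyme thus had at least 3383 reads in libraries with at most 2 of its substrate elastin.

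**Figure D1:**
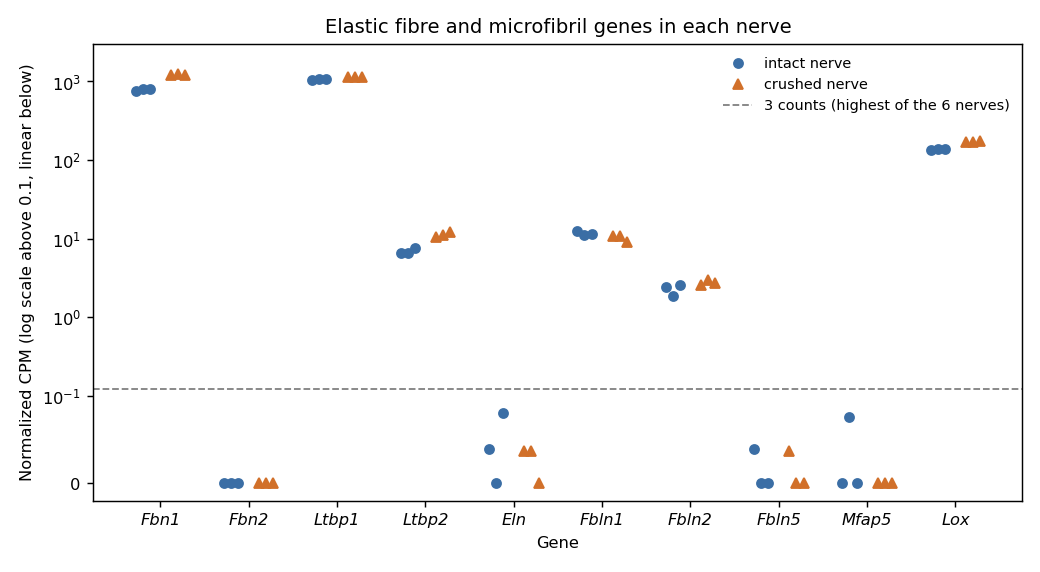
Normalized CPM of the 10 genes in each of the 6 nerves, on a vertical axis that is logarithmic above 0.1 and linear below; circles are intact and triangles are crushed nerves, and the dashed line is the level of 3 counts. Ltbp1, Fbn1 and Lox sit above 100 in all nerves, Fbln1, Ltbp2 and Fbln2 between 1 and 20, and Eln, Fbln5, Mfap5 and Fbn2 at or under the line.

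**Figure D2:**
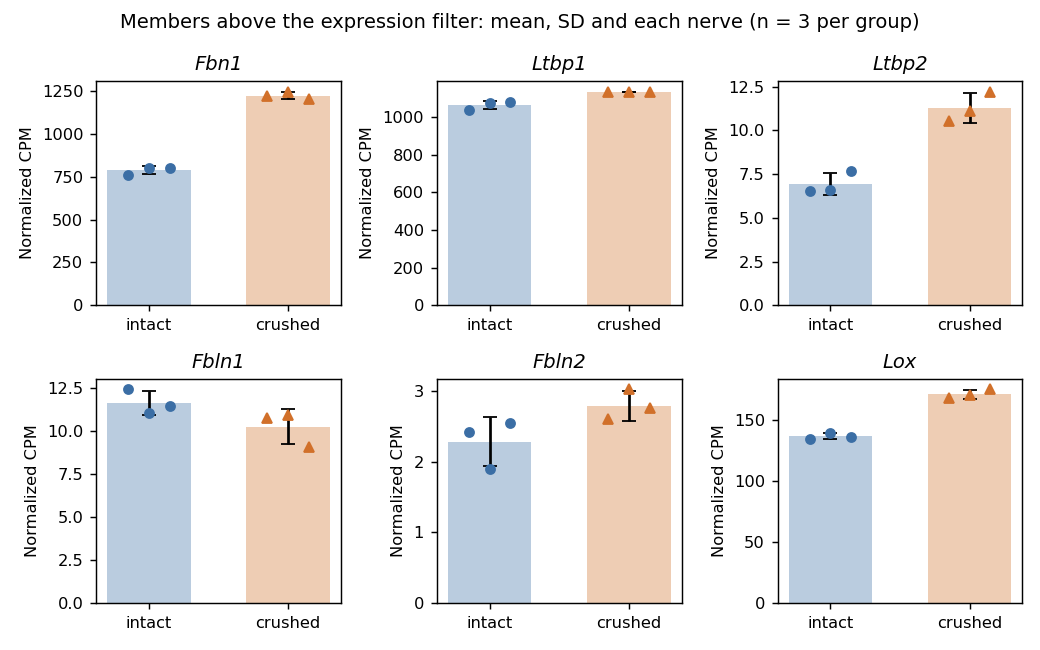
Normalized CPM of the 6 genes past the expression filter, with bars for the mean, error bars for the SD and points for each nerve (n = 3 per group), each panel on its own axis from 0. Fbn1 and Ltbp2 stand clearly apart between the groups, Lox and Ltbp1 by less, and the points of Fbln1 and Fbln2 nearly touch.

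Of the 10 genes, 6 passed the filter. In 5 of the 6, the lowest crushed nerve exceeded the highest intact nerve, and in 1 the order was the opposite, while over the genes tested these patterns were seen in 10.8% and 12.2%. Because the genes were chosen on this comparison, nothing is read from these counts. None of the 6 reached a log2 fold change of 1. Their median log2 fold change was 0.31, against -0.0017 over all genes tested, and because of the same choice nothing is read from this difference. Overlapping genes could share reads with Fbn1, Fbn2 and Lox, but the 4 genes that overlap them in the table had at most 2 counts in any nerve.

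The order of the levels per length, in FPKM, was the same in both groups. In intact nerves it ran from Ltbp1 (169 ± 4.07) over Fbn1 (79.2 ± 2.48), Lox (21.6 ± 0.425), Fbln1 (3.41 ± 0.195) and Ltbp2 (0.683 ± 0.0655) to Fbln2 (0.527 ± 0.0793). In crushed nerves the FPKM levels were 183 ± 0.210 for Ltbp1, 124 ± 2.10 for Fbn1, 27.4 ± 0.591 for Lox, 3.04 ± 0.304 for Fbln1, 1.12 ± 0.0865 for Ltbp2 and 0.651 ± 0.0489 for Fbln2 (SD, n = 3 each). Neighbours in the order did not overlap in either group. The closest pair was Ltbp2, between 0.640 and 0.758 in intact nerves, and Fbln2, between 0.437 and 0.588. Among the 17425 genes with at least 1 count, Ltbp1 stood at percentile 97.6 of FPKM in intact nerves, Fbn1 at 93.7, Lox at 75.3, Fbln1 at 44.5, Ltbp2 at 32.8 and Fbln2 at 31.2.

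In FPKM, Ltbp1 exceeded Fbn1 in every nerve, by less in crushed nerves. In normalized CPM, which is not scaled to gene length, Ltbp1 was above Fbn1 in intact nerves (means 1065 and 788). There Fbn1 was above Ltbp1 in every crushed nerve (means 1223 and 1135). The ratio of their FPKM values was 2.16, 2.13 and 2.13 in intact nerves 1 to 3 and 1.47, 1.44 and 1.49 in crushed nerves 1 to 3. Its mean was 2.14 ± 0.0171 in intact and 1.47 ± 0.0258 in crushed nerves (SD, n = 3 each). The ratio of Lox to Fbn1 was 0.273 ± 0.00524 in intact and 0.220 ± 0.00777 in crushed nerves, so that the enzyme and the scaffold did not differ between the groups in proportion. Both ratios come from the comparison on which the genes were chosen.

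Within their families, the genes differed widely in their part of the total. Of the summed FPKM of the fibrillin and LTBP genes, Ltbp1 held 62.6% ± 0.225 in intact and 55.6% ± 0.315 in crushed nerves, and Fbn1 held 29.2% ± 0.298 and 37.8% ± 0.455 (SD, n = 3 each). Ltbp4 held 5.01% in intact and 4.19% in crushed nerves, Ltbp3 2.89% and 2.08%, and Ltbp2 0.252% and 0.342%. Ltbp2 was therefore a minor transcript of its family. The family sum was 271 ± 5.77 FPKM in intact and 329 ± 1.69 in crushed nerves.

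In the lysyl oxidase family, Lox held 8.21% ± 0.299 of the summed FPKM in intact and 11.3% ± 0.582 in crushed nerves (SD, n = 3 each). Loxl3 held 48.7% ± 1.92 and 46.5% ± 0.474, Loxl1 25.1% ± 2.56 and 21.9% ± 0.894, Loxl2 15.5% ± 0.341 and 16.8% ± 0.140, and Loxl4 2.53% ± 0.182 and 3.40% ± 0.176. The family sum was 263 ± 6.91 FPKM in intact and 242 ± 7.56 in crushed nerves, lower in every crushed nerve although Lox itself was higher. Of the fibulin family, Efemp2, which encodes fibulin-4, held 94.98% ± 0.489 in intact and 95.9% ± 0.329 in crushed nerves, Fbln1 4.34% ± 0.392 and 3.41% ± 0.307, and Fbln2 0.668% and 0.730%. Fibulin reads in these libraries came mainly from Efemp2, a gene outside the 10.

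**Figure D3:**
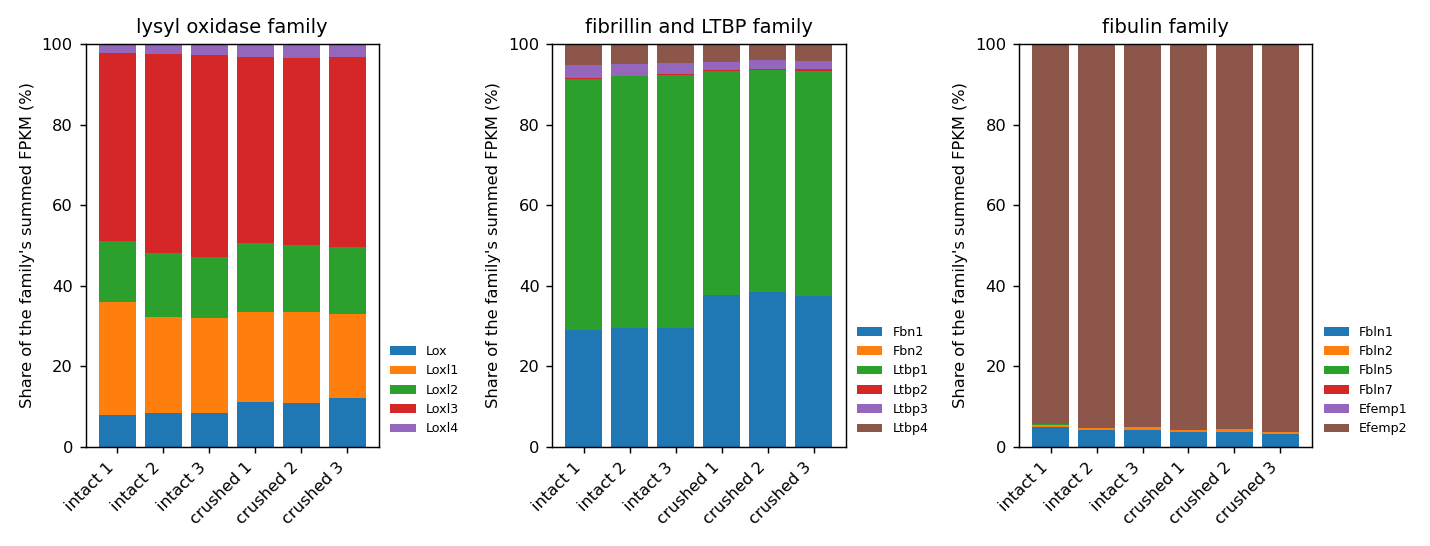
Share of the summed FPKM (vertical axis, percent) held by each gene of the lysyl oxidase, the fibrillin and LTBP, and the fibulin family in each of the 6 nerves. Fbn1 takes a larger share of its family in the crushed nerves (37.8% against 29.2%), Loxl3 is the largest part of the lysyl oxidase family in all nerves, and Efemp2 fills nearly all of the fibulin bar.

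The other genes of the pathway were taken from a list of 52, of which 50 had a row in the table, 6 were at 0 in all nerves and 34 passed the filter. This list was also chosen with earlier results of these data known, so its counts of calls are given as a description. With edgeR's quasi-likelihood test and Benjamini-Hochberg adjustment over all 12393 genes, 2 of the 34 rose, 4 fell, and 28 did not reach an adjusted p of 0.05. Over all genes tested 1.47% rose and 1.65% fell. The median log2 fold change of the 34 genes was 0.03, with 21 above 0. For 9 of the 34 genes the crushed nerves were all above the intact nerves, and for 8 all below. Over all genes tested these patterns were seen in 10.8% and 12.2%.

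The genes that rose in edgeR's test, Mmp9 and Ctsl, were 2 of the 7 listed elastin-degrading proteases. DESeq2 called 6 genes of the list higher, these 2 proteases and 1 each of the fibulins, the cross-linking genes, the ADAMTS group and the receptors. It called 5 lower, 2 of the cross-linking genes and 1 each of the ADAMTS group, the microfibril-binding matrix genes and the receptors. Over all 12393 genes tested, DESeq2 called 221 higher and 291 lower. Mmp9, the gelatinase that cleaves denatured collagen and elastin, went from 25, 18 and 13 counts in the intact to 77, 59 and 60 in the crushed nerves. Its normalized CPM rose from 0.732 ± 0.236 to 2.46 ± 0.329 (SD, n = 3 each, log2 fold change 1.74, SE 0.241, adjusted p = 0.00242 in edgeR's quasi-likelihood test). Among the 34, Mmp9 was the only gene past a log2 fold change of 1 with an unadjusted p under 0.001, a limit that 0.282% of all genes passed in either direction. Ctsl, the lysosomal cysteine protease cathepsin L, rose from 267 ± 6.89 to 318 ± 12.2 normalized CPM (log2 fold change 0.25, SE 0.0423, edgeR adjusted p = 0.00875). Its adjusted p was 0.0663 without crushed nerve 2. Of the other proteases, Mmp14 (log2 fold change 0.10, edgeR adjusted p = 0.367) and Ctsk (0.18, edgeR adjusted p = 0.800) were not called, and Mmp2, Mmp12 and Ctss had at most 6 counts in any nerve.

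The genes that fell came from 4 groups. Fn1, which encodes fibronectin, the matrix on which fibrillin microfibrils assemble, went from 33744, 32246 and 29812 counts in the intact to 22738, 23047 and 20652 in the crushed nerves. Fn1 fell by 0.59 on the log2 scale (SE 0.0439, edgeR adjusted p = 3.52e-05), while Fbn1 had more reads in each of the same crushed nerves. Itgb5, the beta chain of an integrin that binds the RGD motif of matrix proteins, went from 144 ± 6.07 to 100.3 ± 4.39 normalized CPM (log2 fold change -0.52, SE 0.0494, edgeR adjusted p = 0.000176). Adamtsl4, a fibrillin-binding protein without protease activity, went from 45.5 ± 2.43 to 35.2 ± 1.01 normalized CPM (log2 fold change -0.37, SE 0.0596, edgeR adjusted p = 0.00642). The last was Loxl3, a lysyl oxidase, which went from 412 ± 8.36 to 358 ± 8.10 normalized CPM (log2 fold change -0.21, SE 0.0378, edgeR adjusted p = 0.0150), a call that 5 of 12 alternative fits did not keep.

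The other 3 groups of the list had no call. For the 5 genes of the latent TGF-beta group (Ltbp3, Ltbp4, Tgfb1, Tgfb2 and Tgfb3), edgeR and DESeq2 each called 0, with 3 at an unadjusted edgeR p under 0.05. Over all 12393 genes tested, 2009 were under this unadjusted limit. In the latent TGF-beta group Ltbp3, which also encodes a binding protein of latent TGF-beta, had a log2 fold change of -0.21 (SE 0.0699, edgeR adjusted p = 0.154) and Ltbp4 one of 0.01 (SE 0.0486, edgeR adjusted p = 0.954). Of the fibulins, only Efemp2 could be tested, at a log2 fold change of 0.17 (SE 0.0423, edgeR adjusted p = 0.0549), and DESeq2 called it higher. Of the 8 microfibril glycoproteins, Emilin1 and Mfap3 could be tested (edgeR adjusted p 0.630 and 0.840), with 0 called by edgeR or DESeq2 and 0 at an unadjusted p under 0.05. Mfap4, Emilin3 and Mmrn1 were at 0 in all nerves and Mfap2, which encodes MAGP-1, had at most 3 counts, as low as Mfap5.

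**Figure D4:**
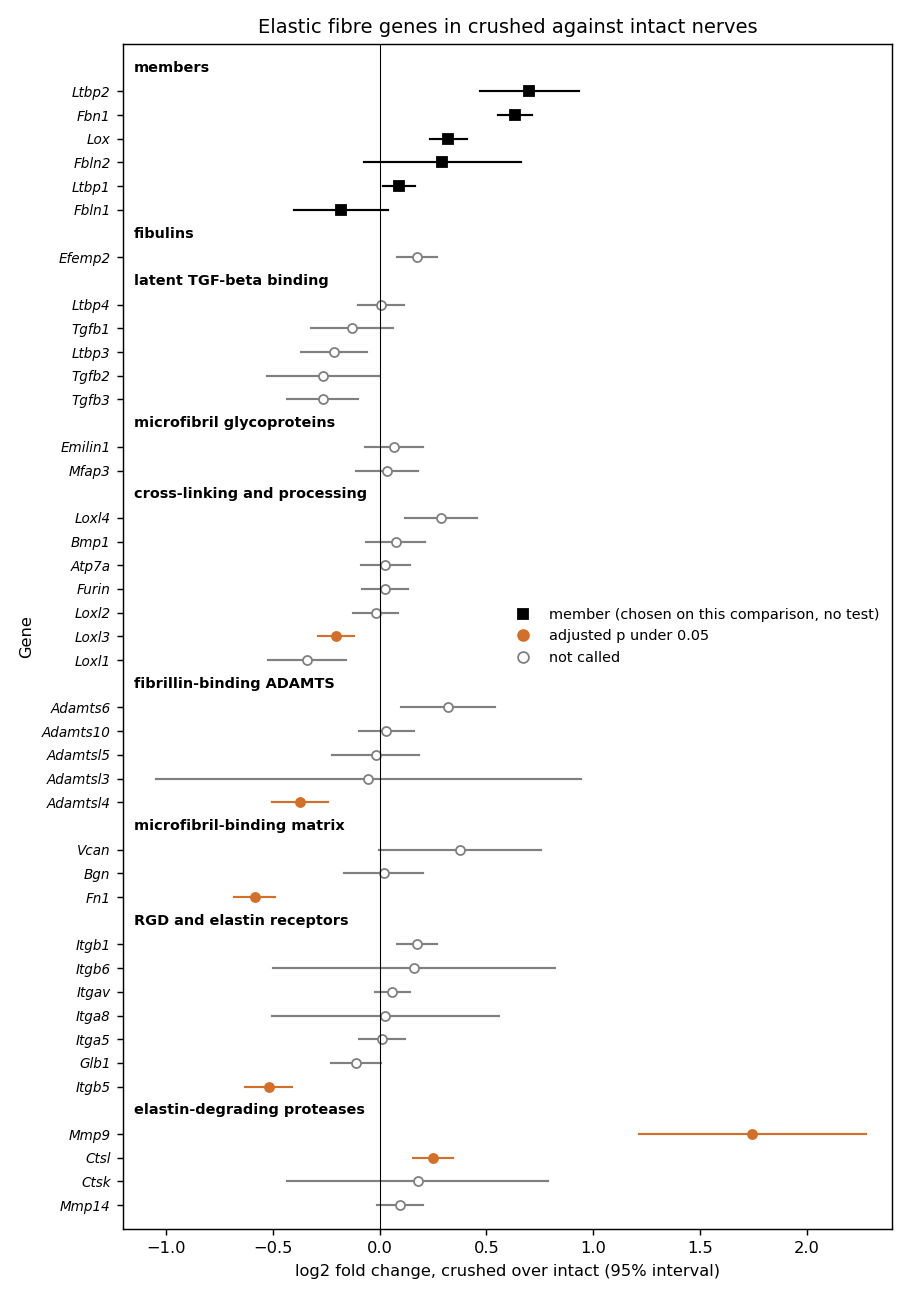
Log2 fold change of crushed over intact nerves (horizontal axis) with its 95% interval for the 6 chosen genes past the filter (black squares, no test) and the 34 other genes of the pathway, grouped by role; filled circles passed an adjusted p of 0.05 in edgeR. Mmp9 is farthest to the right at 1.74, Fn1 farthest to the left at -0.59, and most open circles lie near 0.

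Genes of the cells that lay down matrix in nerve sheaths were read beside these values. The summed level of the 7 fibroblast markers was between 197 and 211 normalized CPM in intact and between 170 and 188 in crushed nerves. In edgeR's test, Col1a1 (log2 fold change -0.69, SE 0.0788, adjusted p = 0.000662), Pdgfrb (-0.77, SE 0.0938, adjusted p = 0.00106) and Col3a1 (-1.76, SE 0.364, adjusted p = 0.0268) fell. Col3a1 had few reads, with 22, 23 and 21 counts in the intact and 10, 3 and 7 in the crushed nerves. Pdgfra, at 46.6 ± 3.33 in intact and 53.3 ± 2.78 in crushed nerves (SD, n = 3 each, log2 fold change 0.19, SE 0.0654, edgeR adjusted p = 0.166), and Thy1 (log2 fold change -0.24, SE 0.0571, edgeR adjusted p = 0.0552) were not called. For the 5 smooth muscle markers the sum was between 32.8 and 37.8 in intact and between 29.2 and 32.1 in crushed nerves, and for the 3 endothelial markers with a row it was between 1.13 and 1.86 in intact and between 1.88 and 2.47 in crushed nerves. The summed skeletal muscle and adipocyte markers were at most 0.283 normalized CPM in every nerve. The sum of the 3 proliferation markers was between 2685 and 2898 in intact and between 2546 and 2683 in crushed nerves.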

How the data were processed

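Total RNA of 6 nerves was sequenced on an Illumina sequencer. The methods name TRIzol extraction, rRNA removal and RNase R digestion, the labels a column kit, and the side of the lesion differs between the sources. The submitters' processing notes name HISAT2, StringTie 1.3.0 and Rnor_6.0. The authors deposited 1 table with a read count and an FPKM value per gene and nerve. The counts were not normalized. The FPKM values were computed by the authors from the counts, with the same length for a gene in all nerves (within 1% for all 10155 genes with a mean count above 100). Columns were matched to nerves by title. The counting step and its use of strand are not given in the sources used here.

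The counts were fitted with edgeR 4.0.16 (quasi-likelihood test, TMM, its filterByExpr filter) and limma 3.58.1 in R 4.3.3, over all 6 nerves, without a replicate block. Of 30957 genes, 12393 were tested. Calls used a Benjamini-Hochberg adjusted p under 0.05. The study's limits (log2 fold change beyond 1, p under 0.001), DESeq2 1.42.0, RLE size factors, no expression filter, limma on log2(FPKM + 0.1) and log2(FPKM + 1), a replicate block and each nerve left out in turn were the alternatives. The calculation was tested on simulated counts. The members and lists were chosen with earlier results of these data known. Named genes are all 10 members, the called genes of the pathway list (up to 8 per direction) and the markers that describe the tissue. The other genes of the list that are given with values (Ltbp3, Ltbp4, Efemp2, Emilin1, Mfap3, Mfap4, Emilin3, Mmrn1, Mfap2, Loxl1, Loxl2, Loxl4, Mmp14, Ctsk, Mmp2, Mmp12, Ctss and Dcn) fall outside that rule and were chosen after their values were seen. 1 listed myelin marker is not reported here. Hmcn2 and Thsd4 had no row by symbol or synonym. Promoters came from the RefSeq annotation of GRCr8, and gene coordinates from the deposited table. The series' design text describes biological replicates, but not which nerves share a rat.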

Additional observations from a re-analysis of the deposited data

How the results depend on the processing

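The log2 fold changes of the 6 chosen genes past the filter kept their sign under all 12 alternative fits. They ranged from 0.62 to 0.65 for Fbn1, from 0.08 to 0.11 for Ltbp1, from 0.34 to 0.78 for Ltbp2, from 0.31 to 0.34 for Lox, from 0.11 to 0.38 for Fbln2 and from -0.23 to -0.10 for Fbln1. The lowest values of Ltbp2 and Fbln2 came from limma on log2(FPKM + 1), whose pseudocount shrinks the change of low genes. Of the other genes of the pathway, 2 rose and 4 fell. DESeq2 called 6 higher and 5 lower, and the study's limits 1 higher and 0 lower. Leaving out 1 nerve gave 1 to 3 higher, the 1 without crushed nerve 2, and 3 to 5 lower. Whether the numbers 1 to 3 pair the nerves was not settled. The deviations of same-numbered nerves correlated at -0.0148, 0.00586 and 0.0756, and 2 of 6 nerves correlated best with their own number. With 3 nerves per group these values cannot show whether same-numbered nerves share a rat. With the replicate block the calls were 2 higher and 5 lower. Mmp9, Fn1, Itgb5 and Adamtsl4 kept their call under the 12 alternative fits, though of these only Mmp9 passed the study's limits, with highest adjusted p values of 0.0177, 0.000899, 0.00387 and 0.0395. The log2 fold change of Mmp9 ranged from 0.46 to 2.02. Loxl3 lost its call in limma on log2(FPKM + 0.1) (adjusted p 0.0519) and without intact nerve 2 (0.0673) or crushed nerve 1 (0.0867), 2 (0.0594) or 3 (0.0726). Over all genes the calls were 182 higher and 205 lower, against 156 and 86 with limma on log2(FPKM + 0.1), 162 and 94 on log2(FPKM + 1), and 98 to 221 higher and 76 to 179 lower with 1 nerve left out. DESeq2 called 221 higher and 291 lower over all genes, and the fit with the replicate block 146 and 154. Depth limits Eln, Fbn2, Fbln5 and Mfap5, which lie under 3 counts in all nerves.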
